A study of Mus musculus with 12 samples.

Results

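The aminoacyl-tRNA synthetases are the enzymes that join each amino acid to its own transfer RNA, and 36 of their genes were read across 12 RNA-seq libraries of PYMT-R221A, a line of mouse mammary tumour cells. The genes were chosen by symbol, a letter for the amino acid followed by "ars" with or without a final digit, together with Eprs, Farsa and Farsb, and by at least 10 counts in at least 3 libraries. The 36 genes described are of 55335 in the table and 14935 that entered the tests. The 16 genes with symbols ending in 2 were taken as mitochondrial and the other 20 as cytosolic. Every library came from the same cell line, whose cells were left as controls, treated with KCC-07 at 40 µM, transfected with a scramble siRNA, or transfected with an siRNA against Mbd2 (siMBD2), with 3 libraries a group. KCC-07 is described by the series' title as a small-molecule inhibitor of the pathway of MBD2, a protein that binds methylated DNA. The sources used here do not give the vehicle, the duration of treatment or the controls' handling. The labels give each group biological replicates 1 to 3 as its batches.

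Each synthetase activates its amino acid with ATP and then transfers it to the matching transfer RNA, and the enzymes fall into a class I and a class II that differ in the fold of the catalytic domain. Cytosolic translation and mitochondrial translation mostly use separate enzymes, all encoded in the nucleus, while the products of the Gars and Kars genes serve both compartments. In the cytosol, the enzymes encoded by Eprs, Iars, Lars, Mars, Qars, Rars, Kars and Dars assemble with scaffold proteins into the multisynthetase complex. When amino acids run short, uncharged transfer RNA activates the kinase GCN2, phosphorylation of the initiation factor eIF2 raises translation of the transcription factor ATF4, and ATF4 with C/EBP partners binds CARE elements in amino acid transport, amino acid synthesis and cytosolic synthetase genes.

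Total counts ran from 25831299 to 33956792 a library. Levels are given as CPM, the count of a gene relative to its library's total with the total scaled by TMM. Mbd2 was at 75.8, 83.2 and 72.5 CPM with scramble and at 35.7, 34.7 and 30.6 with siMBD2. The values of the cell type markers that follow are CPM before TMM scaling. All 7 luminal epithelial markers were measured, and their sum ran from 1171 to 1324 in the controls and from 1446 to 1547 CPM under KCC-07. Krt19 and Cldn7 were low among them, at 0.46 to 3.45 and 2.58 to 17.1 CPM over the 12 libraries. Of 7 mesenchymal markers Thy1 was at 0 in every library, and Col1a2 and Col3a1 reached at most 0.53 and 0.48 CPM. The sum of the 7 was 979 to 1215 in the controls and 457 to 979 CPM under KCC-07. It was mostly Vim, which ran from 351 to 1025 CPM over the 12 libraries, with Pdgfra at 72.5 to 161 CPM. The 4 basal epithelial markers summed to 560 to 670 in the controls and 355 to 698 CPM under KCC-07, with Krt5 at 1.70 to 31.7 CPM over the 12 libraries. The leukocyte list summed to at most 8.28 CPM, the endothelial list to 6.72 CPM and the adipocyte list to 0.369 CPM in any library. The part of these marker differences in the synthetase results was not tested.

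The sequences that bear on the stress-response comparison below are the CARE matches in the promoters. RefSeq promoter windows on GRCm38.p6, from 250 bases before to 50 after each annotated start, were held for 27 of the 36 genes, Mars under its newer symbol Mars1. Hars, Hars2, Lars, Nars, Cars, Rars, Vars, Wars and Pars2 had no entry. The motif searched was TGATGNAA on either strand, and 1 match a gene is given with 30 bases, 5′ to 3′ on the strand of the gene, with the match in capitals. The number after the gene is the position of the first base of the match, counted from the annotated start.
Aars at 10, chr8:111033840-111033869, plus strand: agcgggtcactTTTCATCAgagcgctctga
Gars at -30, chr6:55037960-55037989, plus strand: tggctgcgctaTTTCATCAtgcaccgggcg
Iars at 8, chr13:49682126-49682155, plus strand: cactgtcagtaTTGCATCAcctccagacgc
Tars at -15, chr15:11399655-11399684, minus strand: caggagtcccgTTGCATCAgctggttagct
Yars at 4, chr4:129189895-129189924, plus strand: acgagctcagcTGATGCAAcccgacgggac

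Matches fell in 5 of the 13 cytosolic genes with a window and in 0 of the 14 mitochondrial genes with one. Of all windows held, 3.97% of 32851, and 4.51% of 27025 genes, had the motif. In all of the sequences shown but that of Yars the motif read on the strand opposite to the gene. By GENCODE M21 the matches shown for Aars, Iars and Yars lay within an annotated exon of their own gene, and those for Gars and Tars outside one. A match is a description of letters and was not tested for binding. Of the other motifs, the E-box CACGTG was found in 4 cytosolic genes (Aars, Farsb, Iars and Tars) and in Ears2, against 7.15% of all windows. The NRF1 motif, GCGCA and GCGC with 1 base between them, was found in Farsb, Kars, Tars, Iars2 and Mars2, against 4.60%, and the interferon-response core, GAAA and GAAA with 2 bases between them, only in Qars, against 3.44%. All were searched on both strands.

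In untreated cells the cytosolic genes were expressed above their mitochondrial counterparts. Levels were compared between genes as CPM per kilobase of the principal transcript, and 17 pairs were formed for the same amino acid, Eprs serving for both glutamate and proline and Farsa and Farsb, the 2 chains of 1 enzyme, each being set against Fars2. In control cells the cytosolic gene was the higher in 16 of the 17 pairs. The ratio was largest for asparagine, where Nars stood at 96.4 ± 17.3 and Nars2 at 3.39 ± 0.075 CPM per kilobase (SD, n = 3), a ratio of 28.4. It was smallest among those 16 for cysteine and tyrosine, at 1.53 for both Cars over Cars2 and Yars over Yars2. For leucine alone the order was turned, with Lars at 42.0 ± 1.4 and Lars2 at 61.0 ± 23.6 CPM per kilobase. That order depended on the length used, since the ratio of Lars to Lars2 was 0.69 by the principal transcript and 1.46 by all annotated exons. Lars2 also stood at 342 CPM in control replicate 1 and at 198 and 171 CPM in replicates 2 and 3. Its level is set beside that of Gm42418, a gene that overlaps a ribosomal RNA repeat, further below.

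**Figure D1:**
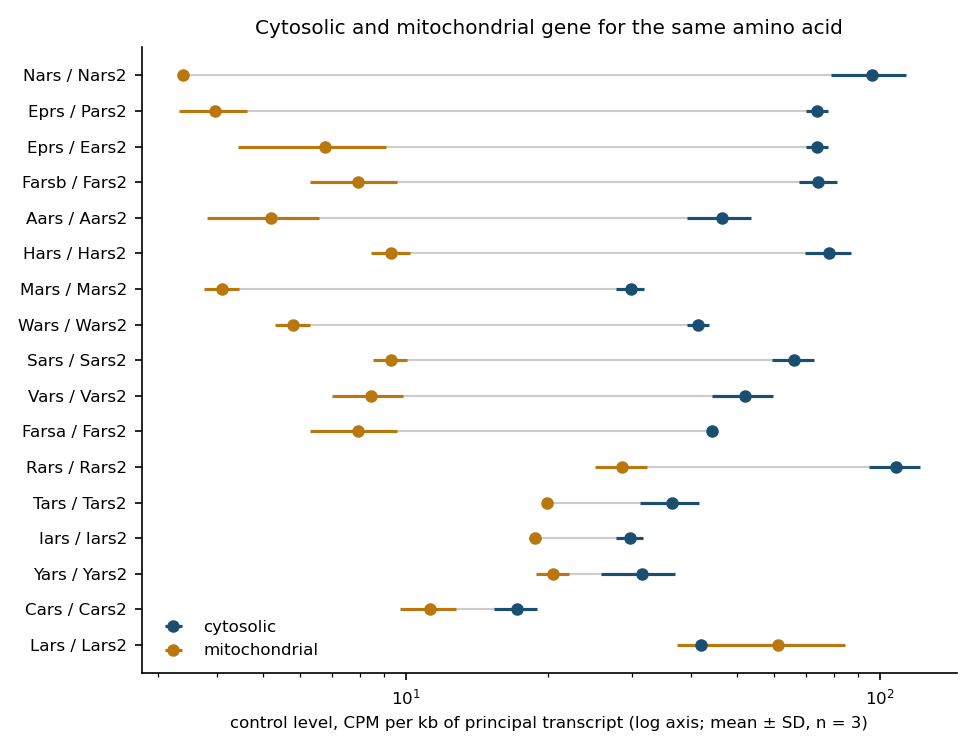
Control levels of the cytosolic (blue) and mitochondrial (orange) gene for each amino acid, as CPM per kilobase of the principal transcript on a log axis, with the mean and SD of 3 libraries. The cytosolic gene lies to the right in every pair except Lars and Lars2, and the distance is largest for Nars and Nars2.

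Over all 12 libraries the highest cytosolic gene per kilobase was Kars, for lysine, at 140, and the lowest was Cars, for cysteine, at 21.4. By all annotated exons the highest was Gars, for glycine, at 80.9, and Cars was again lowest at 10.5. Among the mitochondrial genes Lars2, with the same reservation about its level, was highest at 49.1 and Nars2 lowest at 3.17 by the principal transcript. By all annotated exons Rars2, for arginine, was highest at 17.8 and Nars2 again lowest at 1.72. Gars stood at 251, 254 and 197 in the controls and 258, 245 and 324 CPM under KCC-07, and the groups overlapped. Nars2 stood at 13.1, 12.6 and 12.7 in the controls and 11.6, 12.2 and 10.4 CPM under KCC-07, with all 3 treated libraries below the controls. Rars2 stood at 61.0, 51.8 and 47.9 in the controls and at 50.02, 46.5 and 38.1 CPM under KCC-07, and these groups overlapped.

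With KCC-07 1 cytosolic synthetase gene rose and 1 mitochondrial one fell, each by less than 1.5-fold. The gene that rose was Aars, for alanine (ENSMUSG00000031960.14, chr8:111033144-111057664 on GRCm38, plus strand). The gene that fell was Iars2, for isoleucine (ENSMUSG00000026618.11, chr1:185284726-185329396, minus strand). These were 2 of 36 genes past an edgeR adjusted p of 0.05, against 5.65% of all genes tested, 3.58% higher and 2.08% lower. At an unadjusted p under 0.05 there were 10 of 36, against 25.1%, and DESeq2 called 5, against 12.5%. The median log2 fold change was 0.11 over the 20 cytosolic genes, 13 of them above 0, and -0.12 over the 16 mitochondrial genes, 11 of them below 0, beside a median of 0.015 and 51.8% above 0 over all genes. In 7 of the 36 every treated library lay above every control, against 12.3% of all genes, and in 6 every one lay below, against 10.6%. Among the 17 pairs the cytosolic gene had the higher log2 fold change in 12 with KCC-07. It did so in 16 with scramble against control and in 5 with siMBD2 against scramble. In bulk RNA such as this, fewer cells of a type and less RNA per cell cannot be told apart.

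Aars stood at 240, 314 and 247 CPM in control replicates 1 to 3 and at 360, 343 and 408 CPM in KCC-07 replicates 1 to 3. All 3 treated libraries lay above all 3 controls, with control replicate 2 the nearest. The log2 fold change was 0.47 with SE 0.13 and an edgeR adjusted p of 0.04998, at the edge of the threshold. Leaving out control replicate 1 gave an edgeR adjusted p of 0.143 and control replicate 3 one of 0.0648. Leaving out KCC-07 replicate 1, 2 or 3 gave 0.0750, 0.0563 and 0.106, so on leaving out 1 library Aars passed only without control replicate 2 (0.0342).

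Iars2 stood at 99.5, 103 and 105 in the controls and at 84.5, 83.1 and 87.0 CPM under KCC-07. The 3 treated libraries were within 4 CPM of each other and all below the controls. The log2 fold change was -0.27 (SE 0.067, edgeR adjusted p = 0.0398). It did not pass on leaving out control replicate 1 (edgeR adjusted p = 0.0539) or 2 (0.0951) or treated replicate 1 (0.0857) or 2 (0.0918), nor without a filter on low counts (0.159).

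**Figure D2:**
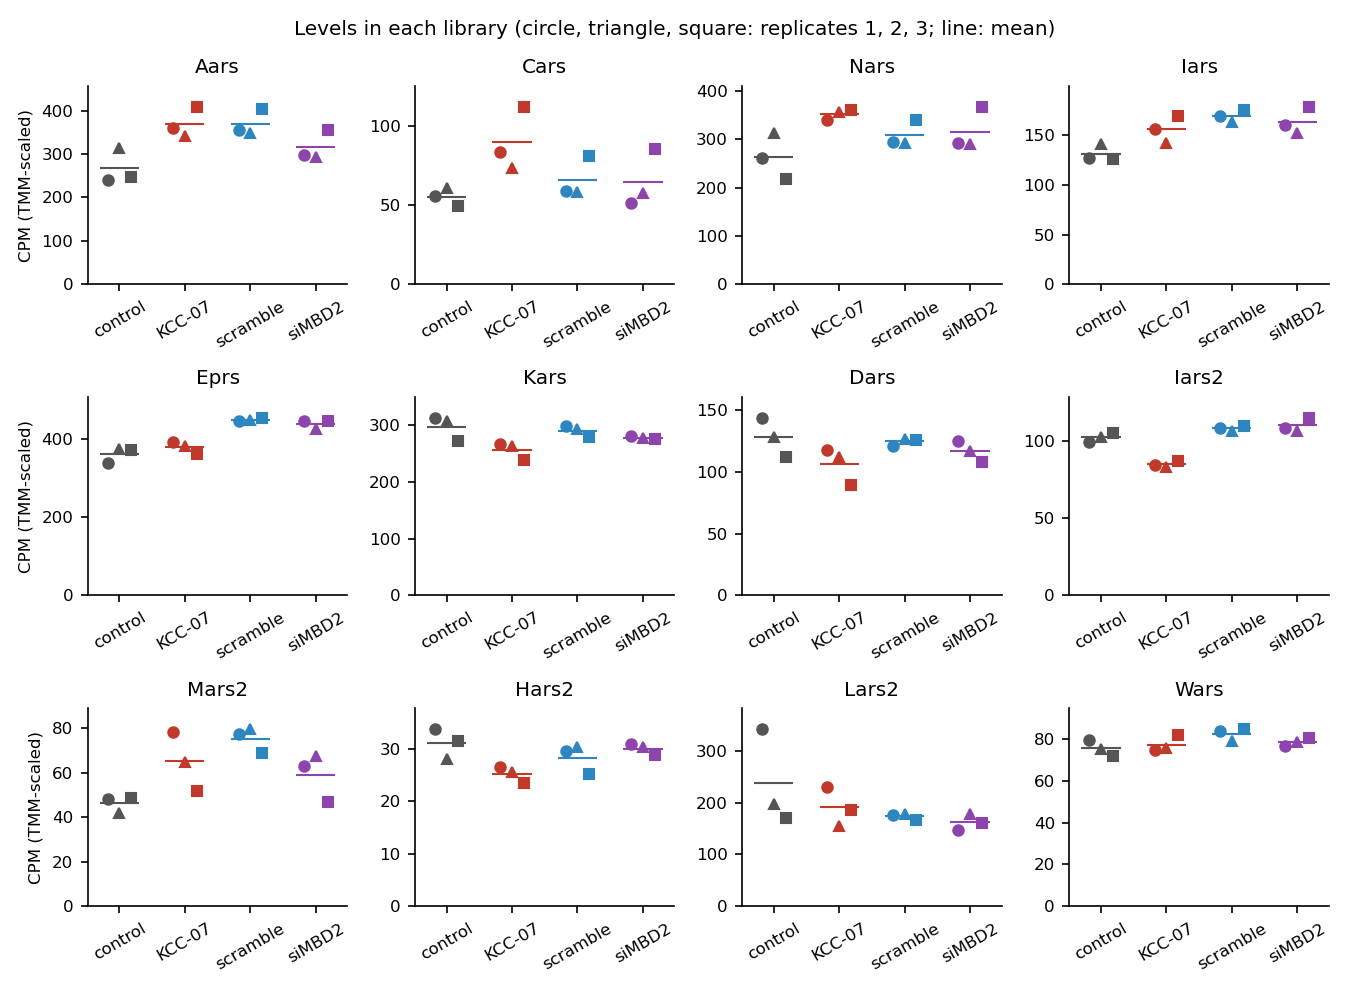
TMM-scaled CPM of 12 synthetase genes in each of the 12 libraries, from 0, with replicates 1, 2 and 3 as circles, triangles and squares and the group mean as a line. Aars lies higher, and Iars2 lower, in every KCC-07 library than in every control library, and Iars2 lies above the controls in every scramble library.

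The labels tie libraries of the same number to a batch, and with that batch number as a block within each arm edgeR called 10 of the 36 genes, against 21.8% of all genes. Aars, Cars, Nars, Sars and Mars2 were then higher, and Dars, Kars, Hars2, Iars2 and Rars2 lower. Fitting the 6 libraries of the comparison alone called none of the 36, with or without the block, against 0.00688% and 2.84% of all genes.

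Of the cytosolic genes not called by edgeR without the block, Cars, for cysteine, had the largest estimate. Cars stood at 55.5, 61.1 and 49.4 in the controls and at 83.6, 73.4 and 112 CPM under KCC-07. The groups did not overlap, but KCC-07 replicate 3 stood well above the others. The log2 fold change was 0.70 with SE 0.21 and an edgeR adjusted p of 0.0748, or 0.0176 with the block.

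Nars, for asparagine, stood at 261, 314 and 219 in the controls and at 340, 356 and 361 CPM under KCC-07. The treated libraries were close together and all above the controls, among which replicate 3 was lowest. The log2 fold change was 0.41 (SE 0.13, edgeR adjusted p = 0.0879, or 0.0199 with the block). Sars, Yars, Mars, Iars and Gars followed with log2 fold changes of 0.40, 0.38, 0.28, 0.25 and 0.24, none past the threshold.

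At the other end lay Dars, Kars and Farsa, with log2 fold changes of -0.27, -0.21 and -0.17. Dars, for aspartate, stood at 144, 128 and 112 in the controls and at 118, 112 and 89.1 CPM under KCC-07 (edgeR adjusted p = 0.183, or 0.0326 with the block). The groups overlapped, though each treated library lay below its control of the same number. Kars stood at 313, 308 and 272 in the controls and at 268, 263 and 240 CPM under KCC-07 (edgeR adjusted p = 0.128, or 0.0392 with the block). All 3 treated Kars libraries lay below the controls. Farsa, a chain of the phenylalanine enzyme, stood at 80.1, 82.0 and 80.2 in the controls and at 79.8, 78.8 and 57.2 CPM under KCC-07 (edgeR adjusted p = 0.377), with no overlap but only replicate 3 clearly lower.

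Mars2, for methionine, had the highest estimate among the mitochondrial genes. It stood at 48.2, 41.7 and 48.8 in the controls and at 78.5, 65.0 and 51.9 CPM under KCC-07. The groups did not overlap, with KCC-07 replicate 3 close to the controls. The log2 fold change was 0.49 (SE 0.16, edgeR adjusted p = 0.0912, or 0.0284 with the block). Next came Wars2 and Sars2, for tryptophan and serine, both at 0.05. Wars2 stood at 26.1, 27.4 and 23.2 in the controls and 27.0, 28.0 and 24.3 CPM under KCC-07, and Sars2 at 17.1, 18.9 and 16.1 and at 19.8, 19.4 and 14.6 CPM, both with overlapping groups.

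The lowest mitochondrial estimates were those of Ears2 and Lars2, whose replicates lay far apart, and of Hars2, for histidine. Hars2 stood at 33.8, 28.1 and 31.5 in the controls and at 26.6, 25.7 and 23.5 CPM under KCC-07, with no overlap (log2 fold change -0.30, SE 0.11, edgeR adjusted p = 0.110, or 0.0394 with the block). Ears2, for glutamate, stood at 16.9, 16.2 and 8.32 in the controls and at 15.1, 12.3 and 5.39 CPM under KCC-07 (log2 fold change -0.34, SE 0.33, edgeR adjusted p = 0.559). Replicate 3 was lowest in both groups and the groups overlapped. Lars2 stood at 342, 198 and 171 in the controls and at 231, 155 and 187 CPM under KCC-07 (log2 fold change -0.31, SE 0.22, edgeR adjusted p = 0.402), and control replicate 1 stood far above every other library. Gm42418, a gene known to overlap a ribosomal RNA repeat, stood at 2052 CPM in that library and at 647 to 999 CPM in the other 11, and its part in the Lars2 level was not tested. Across the 12 libraries the log2 levels of Lars2 and Gm42418 had a Pearson r of 0.95 and a Spearman rho of 0.87, given as a description.

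Summed over genes, the cytosolic synthetases came to 3532 ± 244 in the controls and 3868 ± 120 CPM under KCC-07 (SD, n = 3). The mitochondrial sum was 722 ± 96.4 in control and 647 ± 60.3 CPM under KCC-07. Without Lars2 it was 485 ± 5.65 and 456 ± 33.7 CPM. In the scramble and siMBD2 groups the cytosolic sum was 4018 ± 187 and 3884 ± 272 CPM, and the mitochondrial sum without Lars2 was 514 ± 10.2 and 506 ± 12.2 CPM.

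**Figure D3:**
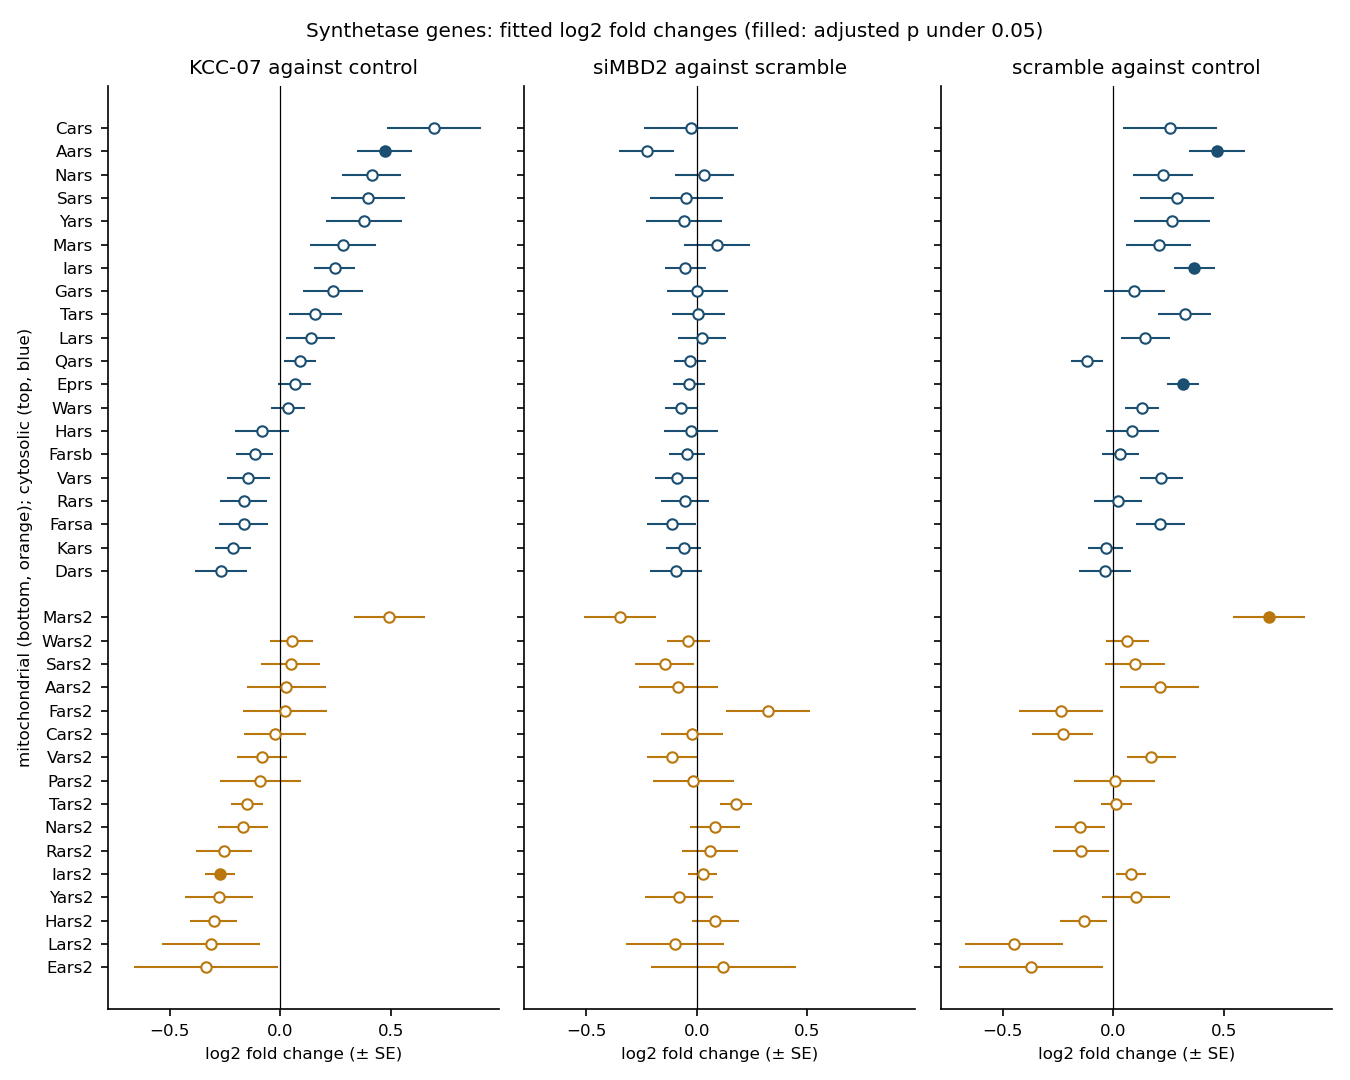
Fitted log2 fold changes with their SE for the 36 genes in 3 comparisons, cytosolic in blue above and mitochondrial in orange below, in the order of the KCC-07 estimates and with filled points for an edgeR adjusted p under 0.05. The cytosolic medians are 0.11, -0.05 and 0.21 from left to right, and the middle panel has no filled point.

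The 8 genes of the multisynthetase complex had a median log2 fold change of 0.08 with KCC-07, with 5 above 0 and none called, and the 12 cytosolic genes outside it a median of 0.20, with 8 above 0 and 1 called. Cytosolic class I genes had a median of 0.11 and class II genes of 0.04, and the mitochondrial classes -0.26 and -0.09. Eprs was counted in class I alone, by its glutamate enzyme, though its protein also carries the proline enzyme. The 5 genes with a CARE match had log2 fold changes of 0.16 to 0.47 with a median of 0.25. The 8 cytosolic genes with a window and no match ran from -0.27 to 0.40, with a median of -0.03 and 4 above 0. Within batches 1, 2 and 3 the medians with KCC-07 were 0.30, -0.01 and 0.72 with a match. Without a match they were 0.05, -0.02 and 0.002. In scramble against control the median was 0.32 with a match, all 5 above 0, and 0.12 without, 5 of 8 above 0. These splits were not tested.

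The cytosolic ratios differed between batches. Within batches the median log2 ratio of KCC-07 over control was 0.13, -0.02 and 0.20 for the cytosolic genes and -0.15, -0.15 and -0.18 for the mitochondrial genes in replicates 1, 2 and 3. In batch 3 the ratio was 1.18 for Cars, 0.90 for Yars, 0.76 for Sars, 0.73 for Aars, 0.72 for both Nars and Gars and 0.68 for Mars, while in batch 2 these 7 genes lay between -0.06 and 0.27. Control replicate 3 was the lowest of the 3 controls for 13 of the 20 cytosolic genes, and KCC-07 replicate 3 was the highest of its group for 11. The same counts were not made over all genes, so they are not shown to be particular to the synthetases. Atf4 was also low in control replicate 3 but not high in KCC-07 replicate 3, at 377, 374 and 203 in the controls and 397, 387 and 386 CPM under KCC-07. The share of counts from mitochondrially encoded genes was also highest in replicate 3 of both groups, at 2.81% and 3.90% against 1.45% to 1.82% in the other 4 libraries. The part of these in the synthetase values was not tested. Without the 4 libraries of batch 3 edgeR called 7 of the 36 genes, Aars, Cars, Nars and Mars2 higher and Dars, Kars and Iars2 lower, against 25.6% of all genes, and the cytosolic and mitochondrial medians were 0.06 and -0.15.

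**Figure D4:**
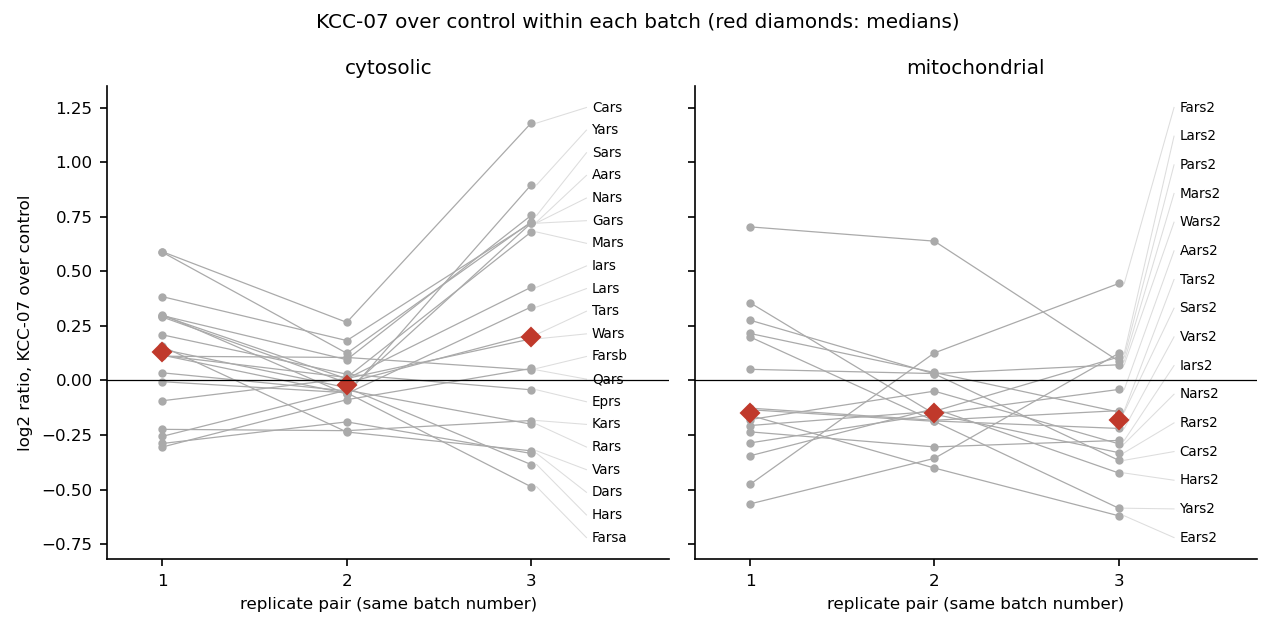
Log2 ratio of KCC-07 over control within each of the 3 batches for the cytosolic (left) and mitochondrial (right) genes, with a grey line joining the values of a gene, names at the right and red diamonds for the medians. In batch 3 a group of cytosolic genes from Mars to Cars lies between 0.68 and 1.18, while the mitochondrial medians stay between -0.15 and -0.18.

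No synthetase gene was called with siMBD2. Against scramble, 0 of 36 passed the edgeR threshold, while 6 of all genes did (0.0402%). At an unadjusted p under 0.05 there was 1 of the 36, against 5.26%, and DESeq2 and the block called 0, against 0.562% and 0.750%. Of the 36, 12 had an estimate above 0, against 50.9%, and in 1 every siMBD2 library lay above every scramble library, against 10.3%, and in 5 below, against 11.6%. The medians were -0.05 over the cytosolic and -0.02 over the mitochondrial genes, beside 0.0035 over all genes. The cytosolic estimates ran from -0.23 for Aars to 0.09 for Mars, for methionine. Aars stood at 355, 349 and 404 CPM in scramble and at 297, 293 and 356 CPM with siMBD2 (edgeR adjusted p = 1.00). Each siMBD2 library lay below the scramble library of its number, but the groups overlapped. Mars stood at 96.5, 94.8 and 112 CPM in scramble and at 98.1, 95.4 and 129 CPM with siMBD2, and its groups overlapped too.

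The mitochondrial estimates with siMBD2 ran from -0.35 for Mars2 to 0.32 for Fars2, for phenylalanine. Mars2 stood at 77.7, 79.6 and 68.7 CPM in scramble and at 63.0, 67.7 and 47.0 CPM with siMBD2 (SE 0.16, edgeR adjusted p = 0.947). All 3 siMBD2 libraries lay below the 3 scramble libraries. Fars2 stood at 13.1, 12.5 and 17.4 CPM in scramble and at 16.3, 16.8 and 20.6 CPM with siMBD2 (edgeR adjusted p = 1.00), with overlapping groups. The gene with the smallest p was Tars2, for threonine, at 49.0, 48.0 and 47.7 CPM in scramble and 53.2, 56.2 and 54.0 CPM with siMBD2 (log2 fold change 0.18, SE 0.072, edgeR adjusted p = 0.866), where the groups did not overlap. Fitted on the 6 siRNA libraries alone with the block, edgeR called 4 of the 36, Fars2 and Tars2 higher and Aars and Mars2 lower, against 19.8% of all genes.

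The difference between the KCC-07 and siMBD2 effects was tested directly, and 0 of 36 genes passed in edgeR, against 0.656% of all genes. At an unadjusted p under 0.05 there were 7, against 14.6%, and DESeq2 called 4, against 4.13%, Aars and Mars2 with the KCC-07 effect higher and Iars2 and Tars2 with it lower. The difference was 0.70 for Aars (SE 0.18, edgeR adjusted p = 0.0996) and 0.84 for Mars2 (SE 0.23, edgeR adjusted p = 0.12) on the log2 scale. With the block these were the 2 genes called, with edgeR adjusted p of 0.0335 and 0.0297, against 6.90% of all genes. Without KCC-07 replicate 3 Mars2 was the 1 gene that passed. Without the block, edgeR thus does not show that an effect called with KCC-07 and not with siMBD2 differed between the agents.

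In scramble siRNA libraries 4 genes were higher than in the untransfected controls and 0 were lower. This comparison shares its control libraries with that of KCC-07, so the estimates of both are not independent. Beside Aars these were Eprs (chr1:185363044-185428360), Iars (chr13:49682100-49734267) and Mars2 (chr1:55237177-55248470), all on the plus strand. Here 4 of 36 passed in edgeR, with the batch number as a block shared by both arms 4 and in DESeq2 4, against 8.79%, 13.8% and 15.4% of all genes. The threshold was passed upward by 4.71% and downward by 4.08% of all genes. At an unadjusted p under 0.05 there were 6 of 36, against 27.2%. The cytosolic median was 0.21, with 17 of 20 above 0, and the mitochondrial median 0.01, beside -0.03 and 46.9% above 0 over all genes. The cytosolic median was 0.15, 0.01 and 0.29 within batches 1, 2 and 3, 0.075 without batch 3 and 0.13 without scramble replicate 3. In 9 of the 36 every scramble library lay above every control, against 16.4%, and in 3 below, against 16.8%.

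Aars rose to 355, 349 and 404 CPM with scramble, above all controls (log2 fold change 0.47, SE 0.13, edgeR adjusted p = 0.0405). Iars, for isoleucine, stood at 127, 141 and 126 in the controls, at 156, 142 and 170 CPM under KCC-07 and at 169, 164 and 176 CPM with scramble. All scramble libraries of Iars lay above the controls (log2 fold change 0.37, SE 0.092, edgeR adjusted p = 0.0317). Eprs, whose protein carries both the glutamate and the proline enzyme, stood at 341, 375 and 373 in the controls, at 394, 383 and 362 CPM under KCC-07 and at 448, 450 and 454 CPM with scramble. Its scramble libraries were nearly level and above all controls (log2 fold change 0.31, SE 0.073, edgeR adjusted p = 0.0242), while with KCC-07 the log2 fold change was 0.06 and the groups overlapped.

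Mars2 rose from the control values above to 77.7, 79.6 and 68.7 CPM with scramble, with no overlap (log2 fold change 0.70, SE 0.16, edgeR adjusted p = 0.0231). Iars2, which fell with KCC-07, stood at 108, 107 and 110 CPM with scramble, all above the controls and above the KCC-07 libraries (log2 fold change 0.08, edgeR adjusted p = 0.478).

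These 4 calls depended on single libraries. Without control replicate 1 the edgeR adjusted p was 0.127 for Aars, 0.0902 for Iars, 0.0639 for Eprs and 0.0625 for Mars2, and without control replicate 2 it was 0.0501 for Iars, 0.0564 for Eprs and 0.0856 for Mars2. Without control replicate 3 that of Aars was 0.0537. Without scramble replicate 1 none of the 4 passed, at 0.101 for Aars, 0.106 for Iars, 0.0917 for Eprs and 0.0905 for Mars2, nor did any without scramble replicate 2, at values between 0.0867 and 0.0929. Without scramble replicate 3 Aars, Iars and Eprs did not pass, at 0.124, 0.0970 and 0.0732. Without the libraries of batch 3 edgeR called 8 of the 36, Aars, Eprs, Farsa, Iars, Mars2 and Vars higher and Ears2 and Fars2 lower, against 41.1% of all genes.

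The counting's strand setting is not given in the sources used here, so genes that overlap another gene are uncertain, 13 of the 36 on the opposite strand. Among those called, Aars overlaps Gm24103, which had no counts, and shares bases on its own strand with Exosc6, an exosome subunit gene at 0 to 3.40 CPM per library before TMM scaling. Iars2 overlaps 2010103J01Rik, which had none, and Rab3gap2, at 71.0 to 89.8 CPM. Iars has a near-identical copy, Gm4849, with at most 2 counts. Yars overlaps C77080, at 57.5 to 184 CPM, Mars overlaps Ddit3, at 5.48 to 50.8 CPM, and Hars and Hars2 overlap each other. The remaining overlaps touch Cars, Cars2, Ears2, Fars2, Farsb, Nars2 and Vars2.

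Of 30 ATF4 target genes other than synthetases 4 rose with KCC-07 in edgeR and 0 fell, against 3.58% of all genes higher and 2.08% lower. All 30 were above 0, against 51.8% of all genes, with a median log2 fold change of 0.61. The block called 10, all higher, against 21.8% of all genes called in either direction. Slc7a11, the cystine transporter, stood at 10.1, 15.1 and 3.01 in the controls and at 42.8, 51.3 and 51.1 CPM under KCC-07 (log2 fold change 2.37, SE 0.41, edgeR adjusted p = 0.00981), with every treated library above every control. Slc7a1, an importer of basic amino acids, Slc1a4, a neutral amino acid carrier, and Ddit4, an inhibitor of mTOR signalling, rose by 0.99, 0.79 and 0.94. Trib3, a pseudokinase induced by ATF4, had a log2 fold change of 0.71 (edgeR adjusted p = 0.0665).
In scramble against control 5 of the 30 rose, Slc7a1, Slc1a5, Slc38a2, Cebpb and Ddit4, against 4.71% of all genes higher. The median was 0.01 with 16 above 0, against 46.9% of all genes above 0. With siMBD2 0 of 30 passed in edgeR (median 0.02), and the block called 1, against 0.750% of all genes. This was Phgdh, the first enzyme of serine synthesis, at 303, 296 and 358 CPM with scramble and 196, 197 and 241 CPM with siMBD2, with no overlap (log2 fold change -0.59, edgeR adjusted p = 0.212, or 0.0290 with the block). Of 7 integrated stress response kinase, phosphatase and Atf4 genes 0 passed with KCC-07 (median 0.26), against 5.65% of all genes. The block called 3, Eif2ak3, Ppp1r15a and Ppp1r15b, all higher, against 21.8% of all genes called in either direction. With scramble against control 2 of the 7 rose, against 4.71% of all genes. Eif2ak4, which encodes GCN2, rose by 0.39 (edgeR adjusted p = 0.0109). Ppp1r15b, a phosphatase subunit that acts on eIF2, rose by 0.56 (edgeR adjusted p = 0.00457). Of the 7, 3 lay below 0, among them Ppp1r15a at -0.68 (edgeR adjusted p = 0.0746, or 0.0141 with the block) and Eif2ak3 at -0.40 (edgeR adjusted p = 0.127). The block called 2 higher and 1 lower, against 13.8% of all genes.

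Of 8 measured genes for scaffold proteins of the complex and for editing factors 0 passed with KCC-07 (median -0.21). The block called 3 lower, Aimp1, Aimp2 and Prorsd1, against 21.8% of all genes called in either direction. Aimp2, a scaffold protein, stood at 68.0, 56.7 and 52.6 in the controls and at 46.8, 49.9 and 32.7 CPM under KCC-07 (log2 fold change -0.45, SE 0.15, edgeR adjusted p = 0.0856), with no overlap. Of 4 genes for the indirect charging of glutamine transfer RNA and for formylation in mitochondria 1 fell with KCC-07, against 2.08% of all genes. This was Gatc, a subunit of the amidotransferase, at 26.2, 26.6 and 25.6 in the controls and 18.9, 19.8 and 19.4 CPM under KCC-07 (log2 fold change -0.43, SE 0.089, edgeR adjusted p = 0.0189), all treated libraries below the controls. Gatb, another of its subunits, had a log2 fold change of -0.45 (edgeR adjusted p = 0.0677, or 0.0485 with the block). The other 2 of the 4, Qrsl1 and Mtfmt, lay above 0, at 0.08 and 0.30 (edgeR adjusted p = 0.703 and 0.357).

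Of 12 mitochondrial translation factor genes 1 fell with KCC-07 (median -0.16), against 2.08% of all genes lower. Tufm, the elongation factor that brings charged transfer RNA to the mitochondrial ribosome, stood at 117, 128 and 110 in the controls and at 96.0, 97.5 and 80.8 CPM under KCC-07 (log2 fold change -0.37, SE 0.092, edgeR adjusted p = 0.0383), with no overlap. Of 23 cytosolic translation factor genes 0 passed (median -0.16), and the block called 4 lower, a share under the 21.8% of all genes that it called, among them Eef1d and Eef1g, subunits of the exchange factor of the cytosolic elongation factor. Of 24 genes of transfer RNA synthesis and processing 0 passed with KCC-07 (median -0.03). The block called Gtf3c1 higher and Gtf3a, Maf1 and Ssb lower, against 21.8% of all genes called in either direction. With scramble against control 4 rose and 1 fell, against 4.71% and 4.08% of all genes.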

How the data were processed

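Polyadenylated RNA was read on a NovaSeq X instrument (per the labels' protocols), and the authors deposited whole-number read counts per gene with no normalization. DRAGEN, DESeq2 1.44.0 and mm10 (GRCm38.p6) are named, without a role, in the submitters' processing notes; annotation, multi-mapping and strand settings are not given in the sources used here. Columns were matched by library name, where replicate 3 of control and of KCC-07 carries the number 4; the labels' batch field gives 3 for it in all groups. Genes kept by filterByExpr (minimum count 10, minimum total 15; 14935 genes) were TMM-scaled and fitted with edgeR 4.0.16 (glmQLFit, glmQLFTest) in R 4.3.3, with 1 mean per group over 12 libraries (8 residual degrees of freedom), and p-values were Benjamini-Hochberg adjusted over all genes, with a threshold of 0.05. DESeq2 1.42.0 was an alternative. SE is the absolute log2 fold change over the square root of F. The steps were tested on simulated counts.

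The replicate block used the batch number in the labels, within each arm or, for scramble against control, shared by both. Deviations of same-numbered libraries had a correlation over all genes of 0.27, 0.28 and 0.48 between control and KCC-07, of 0.09, 0.15 and 0.42 between scramble and siMBD2 and of 0.07, 0.02 and 0.13 between control and scramble. Libraries of different number reached 0.30, 0.21 and 0.10, all between replicates 1 and 2, so that only replicate 3 stood apart. Over the 36 synthetase genes the correlations of same-numbered libraries were 0.46, 0.06 and 0.29 between control and KCC-07. They were 0.56, 0.67 and 0.86 between scramble and siMBD2 and 0.07, -0.53 and -0.21 between control and scramble. Scramble replicate 1 and siMBD2 replicate 2 reached 0.61, and control replicate 2 and scramble replicate 3 reached 0.56. For scramble against control the block thus did not pair libraries that deviated alike in these genes. Replicates of a group differed beyond sampling noise (chi-square per degree of freedom at least 3.43). The labels call the replicates biological but do not state whether they were separate cultures, so p-values measure the spread between these libraries. With 3 against 3 an exact permutation p cannot fall below 0.1. The members, lists and tests were chosen with earlier results of these data known. Named genes were those called in any comparison, the 3 highest and 3 lowest per compartment with KCC-07, the highest and lowest with siMBD2 and per kilobase, and up to 5 of each list by smallest p. Gene models came from GENCODE M21, and 9 genes had no promoter entry. A gene of the family and a promoter sequence are not reported here, and counts and medians leave that gene out. Protein sequences were not analysed here.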

Additional observations from a re-analysis of the deposited data

How the results depend on the processing

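With KCC-07 against control 2 synthetase genes were called, and 10 with the replicate block, 5 by DESeq2, 7 without batch 3 (also 7 there with the block, a choice made after seeing the data), 0 in its own 6 libraries, also with the block, 0 at an adjusted p under 0.01, and 0 to 2 on leaving out 1 library. For siMBD2 the count moved from 0 only in the 6 libraries alone with the block (4), and leaving out 1 library kept it at 0. For scramble against control, 4 became 2 with no filter on low counts, 2 in the 6 libraries alone and 1 there with the block, 0 at an adjusted p under 0.01, 8 without batch 3 with or without the block, and 0 to 4 on leaving out 1 library. For the difference of the effects 0 became 2 with the block, 4 by DESeq2, 3 without batch 3 and 1 there with the block, and 0 to 1 on leaving out 1 library. The cause of these shifts was not tested.

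On leaving out 1 library the mitochondrial median ran from -0.17 to -0.099 with KCC-07, from -0.045 to 0.022 with siMBD2 and from -0.053 to 0.048 with scramble, and the cytosolic one with siMBD2 from -0.083 to -0.0061. Without batch 3 the mitochondrial median with KCC-07 was -0.15, with or without the block. The cytosolic median stayed above 0 in all settings run, from 0.06 to 0.13 with KCC-07 and from 0.07 to 0.23 with scramble. Every member had at least 145 reads in every library, and the share of counting error in its SE was not tested.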

Other observations

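Wars, for tryptophan, is known as an interferon-inducible synthetase, and its values were compared with those of Ifit1. It stood at 79.8, 75.2 and 71.9 in the controls, 74.8, 75.7 and 82.1 CPM under KCC-07, 84.1, 79.1 and 84.8 CPM with scramble and 76.9, 78.9 and 80.5 CPM with siMBD2. Ifit1, an antiviral gene induced by type I interferon, stood at 1.52, 2.73 and 1.13 in the controls, 6.31, 5.43 and 4.61 CPM under KCC-07, 9.49, 9.94 and 67.0 CPM with scramble and 35.2, 29.0 and 276 CPM with siMBD2. The Wars log2 fold change was 0.04 with KCC-07 and -0.07 with siMBD2, and 0.13 with scramble against control, each with SE 0.076 (edgeR adjusted p = 0.813, 1.00 and 0.294). For Ifit1 in scramble against control it was 4.01 (SE 1.04, edgeR adjusted p = 0.0359). Of 12 interferon-inducible genes 0 passed in edgeR with KCC-07 or with siMBD2, against 5.65% and 0.0402% of all genes. Their medians were 0.41 and 1.30. The block called 5 higher and 1 lower with KCC-07, against 21.8% of all genes. With siMBD2 it called 6 higher, against 0.750% of all genes.

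Batch 3 also stood apart for many cytosolic synthetases in the siRNA libraries. Replicate 3 was the highest of its group for 14 of the 20 cytosolic genes in scramble and for 14 in siMBD2. Among the 16 mitochondrial genes it was the highest for 4 and 6. The same counts over all genes were not made here either. Over replicates 1 and 2, Cars stood higher in replicate 3 by 0.47 in scramble, 0.66 in siMBD2 and 0.51 with KCC-07 on the log2 scale, and by -0.24 in control. Yars did so by 0.33, 0.44, 0.41 and -0.37, Sars by 0.36, 0.43, 0.48 and -0.08, and Mars by 0.22, 0.42, 0.45 and -0.16. Ears2 stood at -0.99 in control and -1.33 with KCC-07, and at 0.06 in scramble and -0.04 in siMBD2.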
